A study of Homo sapiens with 4 samples.

Results

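The SLC25 genes other than the adenine nucleotide translocases, 44 in all, were examined for binding of the oestrogen-related receptor ERRα in MDA-MB-231 cells, an established line of triple-negative human breast cancer. Members were all protein-coding genes of the RefSeq GRCh38 table whose symbol starts with SLC25A, less the 4 translocases SLC25A4, SLC25A5, SLC25A6 and SLC25A31, out of 20037 protein-coding genes on chromosomes 1 to 22, X and Y. Peaks were taken where their summit, the position of highest enrichment, lay inside a member or within 10 kb of it. The assay was ChIP-seq, in which DNA that precipitates with an antibody to the factor is sequenced. All libraries came from this one line, with no treatment or genetic change named in the labels. There were 2 ERRα ChIP replicates, from 2 culture samples per the series' design, and 2 inputs without antibody. Per the labels, chromatin was fixed with 1% formaldehyde and each precipitation used 2500000 cells and 5 µg of an antibody to ERRα.

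The SLC25 family carries metabolites, nucleotides, cofactors and ions across the inner mitochondrial membrane, and so joins cytosolic metabolism to the citric acid cycle and to oxidative phosphorylation. A few of its proteins sit in the outer membrane or in peroxisomes. ERRα is an orphan nuclear receptor known for activating genes of mitochondrial energy metabolism, together with coactivators of the PGC-1 family, and it binds an extended half-site called the ERR response element.

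Replicate 1 had 14072 peaks, replicate 2 had 12659, and the list of peaks matched between them had 10059. The 5070 matched peaks with an irreproducible discovery rate (IDR) up to 0.05 are called reproducible. The fold enrichment of a peak is the authors' ratio of ChIP to input background at its summit, and its depth in reads is unknown. With 2 ChIP libraries and no separate input value per peak, differences are described and no test was run. An SD over 2 replicates is itself imprecise, and both replicates share the same inputs as background. The peak lists hold no expression values, so the identity of the cell line could not be checked from markers.

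Of the 44 carriers, 14 (31.8%) had a reproducible summit in the gene or within 10 kb, against 18.3% of all protein-coding genes. These 14 had 16 summits, as SLC25A39 and SLC25A53 had 2 each and the others 1 each. With all matched peaks, 17 carriers (38.6%) had a summit, against 30.8% of all genes. In each replicate's own list 21 carriers (47.7%) had one, against 38.9% of all genes in replicate 1 and 35.9% in replicate 2. The remaining members divide into 3 with a matched peak that failed IDR, 7 with peaks in a single replicate's list at any one place, and 20 with no peak in any list.

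How a summit was given to a gene changed this count. Of the 16 reproducible summits, 6 lay inside the carrier and 10 outside it, and 8 of the 16 were closer to another protein-coding gene than to the carrier, 7 of them inside that gene. When each summit was given to its nearest protein-coding gene alone, 7 of 44 carriers (15.9%) remained, which is near the 14.3% of all protein-coding genes. These 7 were SLC25A3, SLC25A12, SLC25A23, SLC25A25, SLC25A26, SLC25A37 and SLC25A39. Within 1 kb of a gene end there was a reproducible summit for 5 of 44 carriers (11.4%), against 4.49% of all genes. Among these 5, the summits of SLC25A22 and SLC25A53 lay outside the carrier and inside the neighbours CEND1 and FAM199X. Over the merged 10 kb windows, the carriers had 4.92 reproducible summits per Mb, all protein-coding genes 2.41, and the 338 SLC genes of other families 3.17. The other lists described below were higher. The 30 other mitochondrial transporters had 6.67, the 22 enzymes of carrier substrates 6.20 and the 4 adenine nucleotide translocases 21.4.

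Gene length sets how many summits a window can hold. The carriers had a median length of 27.3 kb, and all protein-coding genes 24.1 kb. With all genes ordered by length and cut into 4 bands of equal number, the band up to 8.54 kb is the shortest, and there 4 of 10 carriers had a reproducible summit, against 10.7% of all genes of that length. In the next band 3 of 9 did, against 16.1%, and in the following one, with genes of 24.1 to 65.1 kb, 4 of 19 did, against 18.5%. In the longest band 3 of 6 did, against 28%. Each carrier count was small. By this 10 kb rule the share was above that of all genes in every band, but near it (21.1%) at 24.1 to 65.1 kb. Among the 4 carriers of the shortest band, the summits of SLC25A1, SLC25A11 and SLC25A22 lay inside neighbouring genes.

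**Figure D1:**
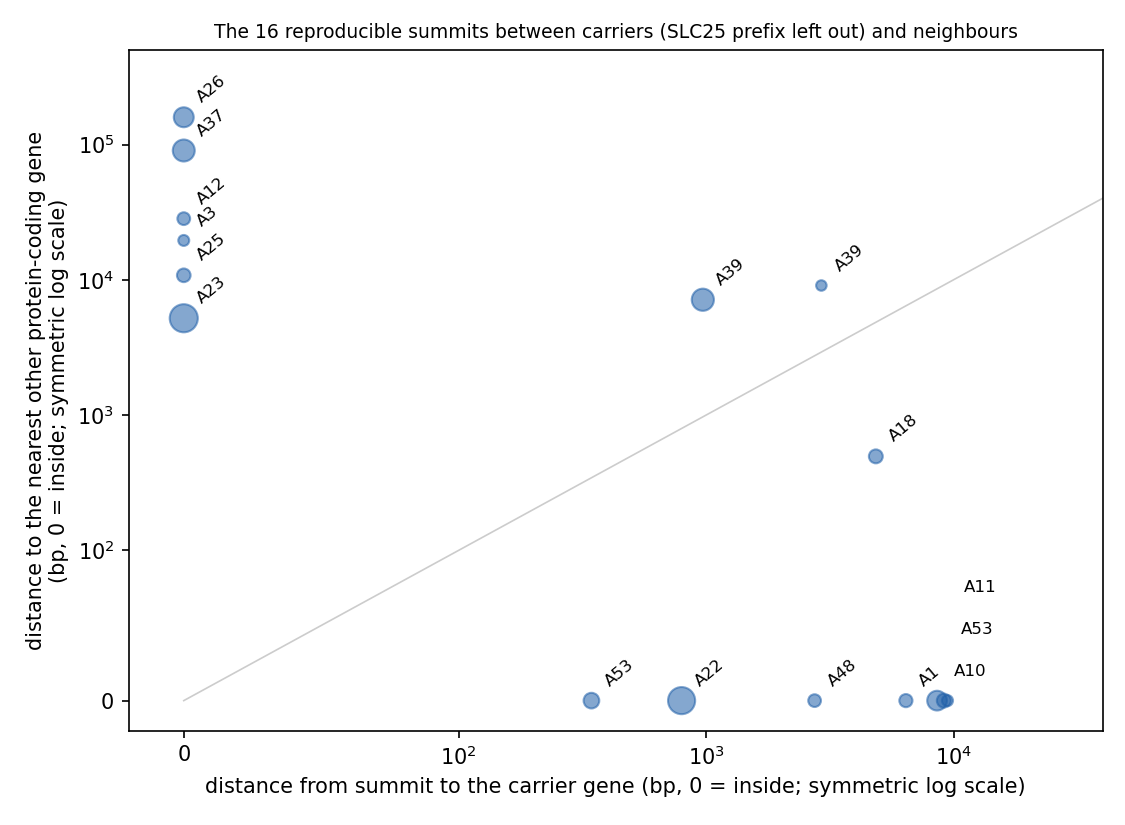
Distance of the 16 reproducible summits from the carrier gene (horizontal axis, bp) and from the nearest other protein-coding gene (vertical axis, bp), both on symmetric log scales where 0 is inside the gene. Each point is a summit, its area grows with the mean fold, and the line marks equal distances: 8 summits lie above it, nearer the carrier, and 8 below it, nearer a neighbour.

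Starts of transcription were available for 36 of the 44 carriers from the RefSeq promoter table (build GRCh38.p14). Those of the other 8 were not used here. A reproducible summit lay within 1 kb of a listed start for 4 of the 36 (11.1%), namely SLC25A3, SLC25A12, SLC25A39 and SLC25A53, against 4.51% of 15843 protein-coding genes in the table. The SLC25A53 summit among these lay inside FAM199X. Any matched summit lay within 1 kb of a listed start for 7 of 36 (19.4%), against 9.05%, adding SLC25A10, SLC25A11 and SLC25A44. In the replicate 1 list 11 of 36 (30.6%) had a summit at a start, against 12.7%, and in the replicate 2 list 8 of 36 (22.2%), against 11.2%.

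The promoters of 5 of these carriers are printed because a matched peak covers them, in part for SLC25A44, and its summit falls inside the window or closest to it. Each runs 5′ to 3′ in the sense of the gene, from 250 bases before the start to 50 after it, as RefSeq gives it for GRCh38.p14. Capitals mark matches, on either strand, to the motifs searched: the ERR response element TNAAGGTCA, the nuclear receptor half-site AGGTCA it contains, the NRF1 core GCNTGCGC, the ETS core CCGGAAG, the YY1 core AAGATGGC, the cyclic AMP response element TGACGTCA and the AP-1 site TGANTCA. A promoter with no capitals holds none of them.
SLC25A3 (chr12:98593436-98593735, + strand): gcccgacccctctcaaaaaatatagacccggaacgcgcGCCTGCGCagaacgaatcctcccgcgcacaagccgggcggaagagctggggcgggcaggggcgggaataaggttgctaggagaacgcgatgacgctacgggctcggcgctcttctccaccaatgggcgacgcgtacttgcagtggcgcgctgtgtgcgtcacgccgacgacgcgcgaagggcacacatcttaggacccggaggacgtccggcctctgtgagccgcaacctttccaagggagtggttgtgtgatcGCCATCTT
SLC25A12 (chr2:171894195-171894494, - strand): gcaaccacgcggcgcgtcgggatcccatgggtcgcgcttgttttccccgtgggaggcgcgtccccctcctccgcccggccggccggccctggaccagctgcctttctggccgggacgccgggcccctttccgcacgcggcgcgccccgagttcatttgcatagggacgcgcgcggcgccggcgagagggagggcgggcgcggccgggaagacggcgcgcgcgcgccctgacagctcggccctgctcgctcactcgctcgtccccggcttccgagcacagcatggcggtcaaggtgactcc
SLC25A53 (chrX:104156960-104157259, - strand): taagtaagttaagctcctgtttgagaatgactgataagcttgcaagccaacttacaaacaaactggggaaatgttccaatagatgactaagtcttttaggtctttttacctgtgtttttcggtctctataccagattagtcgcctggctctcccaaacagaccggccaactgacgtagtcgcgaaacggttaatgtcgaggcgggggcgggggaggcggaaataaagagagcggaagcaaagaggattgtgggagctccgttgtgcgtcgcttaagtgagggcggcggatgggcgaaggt
SLC25A11 (chr17:4939997-4940296, - strand): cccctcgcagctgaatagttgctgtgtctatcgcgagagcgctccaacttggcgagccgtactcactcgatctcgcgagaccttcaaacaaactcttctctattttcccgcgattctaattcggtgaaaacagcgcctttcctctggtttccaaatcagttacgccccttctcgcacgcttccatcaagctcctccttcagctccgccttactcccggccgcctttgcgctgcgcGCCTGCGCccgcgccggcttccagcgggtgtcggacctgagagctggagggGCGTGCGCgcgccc
SLC25A44 (chr1:156193854-156194153, + strand): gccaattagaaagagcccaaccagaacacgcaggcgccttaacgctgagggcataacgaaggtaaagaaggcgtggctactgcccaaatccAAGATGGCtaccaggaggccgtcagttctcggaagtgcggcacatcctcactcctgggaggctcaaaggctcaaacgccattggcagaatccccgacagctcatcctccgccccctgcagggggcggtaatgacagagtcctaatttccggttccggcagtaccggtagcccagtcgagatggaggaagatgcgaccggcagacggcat

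None of the 36 carriers with a promoter entry held TNAAGGTCA in its 300-base window, against 0.896% of all 15843 genes and 3.78% of the 715 genes with a reproducible summit within 1 kb of a start. The half-site AGGTCA was found for 4 of 36 (11.1%), SLC25A22, SLC25A34, SLC25A36 and SLC25A45, against 15.2% of all genes. It was found for none of the 7 with any matched summit at the start, a set that includes peaks that failed IDR. The 4 of these with a reproducible summit there held none either. Of the 715 genes, all with a reproducible summit, 26.4% held it. With so few carriers, these counts of none do not resolve a lower share. The NRF1 core was found for 6 of 36 (16.7%) against 19.5%, and SLC25A3 and SLC25A11 were the members among these with a matched summit at the start. In SLC25A11 the summits of the replicates were 140 bp apart and the peak did not pass IDR, so the distance of its 2 matches from the summit is not resolved. The YY1 core was found for SLC25A3 and SLC25A44, 2 of 36 (5.56%), against 4.66%, and both had a matched summit at the start. The ETS core was found for 10 of 36 (27.8%) against 16.5% and the cyclic AMP response element for 3 of 36 (8.33%) against 3%, and no member with a matched summit at the start held either. The AP-1 site was found for 2 of 36 (5.56%) against 8.04%. Of the 715 genes with a reproducible summit within 1 kb of a start, 28% held the NRF1 core and 8.25% the YY1 core. The ETS core was held by 26.3% of them, the cyclic AMP response element by 4.06% and the AP-1 site by 7.69%. Some of the 7 carriers had only a peak that failed IDR at the start, so these shares are not like for like. Whether any motif goes with the summits was not tested. A match describes letters in the window and is not a binding site, and 4 of the 5 summits lay just outside the windows printed: 54 bp for SLC25A12, 94 bp for SLC25A53, 100 bp for SLC25A44 and 123 bp for SLC25A3.

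Over all protein-coding genes, 18.3% had a reproducible summit within 10 kb. The substrate groups below hold at most 10 carriers each, and differences from that share were not tested. Among the carriers of amino acids, 3 of 9 had a reproducible summit. The strongest was at SLC25A22, which imports glutamate, with a fold of 51.4 in replicate 1 and 61.6 in replicate 2 (mean 56.5 ± 7.26, SD, n = 2). That peak spanned chromosome 11 from 788773 to 790286. Its summit lay 796 bp beyond the downstream end of SLC25A22, 5.75 kb from the nearest listed start of that gene, and inside CEND1, a gene of neuronal cell cycle exit, at 411 bp from its start. Rank among the 5070 reproducible peaks was 191.

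SLC25A18, which encodes the other glutamate importer, had 16.4 in replicate 1 and 13.3 in replicate 2 (14.8 ± 2.17, SD, n = 2). This summit was 4.85 kb upstream of SLC25A18 and 495 bp from CECR2, a gene of chromatin remodelling. SLC25A12 encodes a calcium-regulated exchanger of aspartate for glutamate, a step of the malate-aspartate shuttle. Its folds were 14.1 and 10.9 (12.5 ± 2.21, SD, n = 2), and the peak covered its own start on chromosome 2 from 171893790 to 171894501, with the summit 103 bp inside the gene. Of the 3, the SLC25A12 summit is the one nearest its own carrier. In both replicates the SLC25A22 peak was higher than the other 2.

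SLC25A13, the paralogue of SLC25A12 known as citrin, had a weaker matched peak 86.0 kb inside the gene, with folds of 5.02 and 5.31, and it did not pass IDR. SLC25A44, which imports branched-chain amino acids, had one 350 bp upstream of its start with 6.34 and 6.33. Its replicates were alike in height and their summits 8 bp apart, but the peak was weak and did not pass IDR. SLC25A15, an ornithine carrier, had a peak 151 bp inside its start in replicate 1 alone (6.26). SLC25A2, the other ornithine carrier, SLC25A29, a carrier of basic amino acids, and SLC25A38, which imports glycine for haem synthesis, had no peak in any list.

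Of 4 carriers of carboxylates and keto acids, 3 had a reproducible summit, none of them within 1 kb of the carrier's ends. The dicarboxylate carrier gene SLC25A10 had 31.9 in replicate 1 and 28.0 in replicate 2 (29.96 ± 2.82, SD, n = 2), on chromosome 17 from 81703100 to 81704114. That summit was 8.58 kb upstream of SLC25A10 and inside MRPL12, a gene of the mitochondrial ribosome, 337 bp from its start. At the start of SLC25A10 itself, 440 bp inside, a weaker matched peak reached 7.99 and 5.01 and did not pass IDR.

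SLC25A1, the exporter of citrate for fatty acid and sterol synthesis, had 14.1 and 12.5 (13.3 ± 1.13, SD, n = 2) at a summit 6.42 kb upstream, inside CLTCL1, a clathrin heavy chain gene. SLC25A11 exchanges 2-oxoglutarate for malate in the malate-aspartate shuttle. Its reproducible summit had 9.41 and 9.57 (9.49 ± 0.108, SD, n = 2) and lay 9.45 kb upstream, inside the muscle enolase gene ENO3 and within 1 kb of an end of PFN1, which encodes profilin. Its weaker matched peak, 38 bp inside its start, had 4.42 and 6.61. RNF167 starts 84 bp from that summit on the opposite strand, so the peak cannot be given to either gene alone.

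In this group the starts of SLC25A10 and SLC25A11 therefore carried weak peaks that failed IDR, and the reproducible peaks in their windows were at neighbours. SLC25A21, the 2-oxoadipate carrier, had peaks in replicate 1 alone, the higher of them 553 bp inside its start (5.94).

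The phosphate and ATP-Mg carriers had 3 of 5 members with a reproducible summit, all inside the carrier gene. SLC25A23, a calcium-regulated carrier that exchanges ATP-Mg for phosphate, had the highest mean fold of the 44 carriers, 59.7 in replicate 1 and 61.6 in replicate 2 (60.7 ± 1.34, SD, n = 2). The peak ran over the start of the gene on chromosome 19 from 6457864 to 6460290, a width of 2427 bp, and its summit was 1.21 kb inside. The values of SLC25A23 and SLC25A22 overlap between replicates, so their order is not resolved. The deposited folds take 3570 distinct values over the 12659 peaks of replicate 2, and the 61.6 of these 2 genes is the same deposited value.

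SLC25A25, a paralogue of SLC25A23, had 12 and 16.6 (14.3 ± 3.25, SD, n = 2) at a summit 9.88 kb inside the gene, with a ratio between replicates of 1.38, the largest among the 16 reproducible summits. SLC25A3 encodes the main carrier of phosphate for ATP synthesis. Its peak covered the start on chromosome 12 from 98593337 to 98594389, with folds of 8.34 and 10.1 (9.20 ± 1.23, SD, n = 2) and the summit 172 bp inside. It had the lowest strongest fold among the 14 genes, and at an IDR of 0.01 it is the carrier that is no longer counted. SLC25A24 and SLC25A41, the other ATP-Mg carriers, had no peak in any list, although SLC25A41 adjoins SLC25A23, with the SLC25A23 summit 22.3 kb away.

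The iron and glutathione carriers had 2 of 4 members with a reproducible summit, both with folds above 30 in each replicate. SLC25A37, mitoferrin-1, which brings iron into mitochondria for haem and iron-sulfur clusters, had 40.3 and 33.8 (37.1 ± 4.60, SD, n = 2). The summit lay 19.04 kb inside the gene, with the next protein-coding gene, ENTPD4, 90.3 kb away. Both replicates had their summit at the same base. SLC25A39, a glutathione importer, had 35.6 and 39.9 (37.8 ± 3.07, SD, n = 2) at a summit 970 bp upstream of its start, in a peak on chromosome 17 from 44323753 to 44326591. The values of these 2 genes overlap between replicates.

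The SLC25A39 peak was the widest of the 16, 2839 bp, covered the start of the gene, and had its summit inside an annotated non-coding gene or within 1 kb of its end. In replicate 1 it was made of 2 peaks, and the lower one (14.0) was inside the gene. The matched list adds them, which gives 49.6 in replicate 1. A second reproducible summit 2.92 kb upstream of SLC25A39 was low, with 7.91 and 9.08 (8.49 ± 0.829, SD, n = 2). Its IDR score of 612 was the nearest above the threshold of 540, and the nearest below it was 442, a weaker peak inside SLC25A26 with 9.09 and 6.99. Mitoferrin-2, SLC25A28, and SLC25A40, the paralogue of SLC25A39, had no peak in any list.

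Of 10 carriers of nucleotides and cofactors, 1 had a reproducible summit, against 18.3% of all protein-coding genes. SLC25A26, which imports S-adenosylmethionine, the methyl donor of mitochondrial RNA and DNA modification, had 31.9 and 29.1 (30.5 ± 1.94, SD, n = 2). The peak on chromosome 3 from 66197005 to 66199339 lay inside the annotated gene but 22.7 kb upstream of the nearest listed start, and 2 weaker matched peaks lay further upstream inside the gene (11.3 and 6.89, and 9.09 and 6.99). The next protein-coding gene, MAGI1, was 159.1 kb from the summit. The NAD carrier gene SLC25A51 had a peak 343 bp upstream of its start in replicate 1 alone (6.46), and the coenzyme A carrier gene SLC25A42 had one 671 bp upstream in replicate 2 alone (4.46 fold). No peak in any list was found for 6 members: SLC25A17, a peroxisomal cofactor carrier, SLC25A32, which imports folate, SLC25A33 and SLC25A36, which carry pyrimidine nucleotides, SLC25A52, the close copy of SLC25A51, and SLC25A16.

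SLC25A20 exchanges acylcarnitine for carnitine and so brings fatty acids to β-oxidation. It had a peak 1.71 kb inside its start in replicate 2 alone, with a fold of 5.40. The relatives of uncoupling proteins, SLC25A14, SLC25A27 and SLC25A30, and the outer membrane protein SLC25A46 had no peak in any list. The nearest reproducible summits to these 4 were 75 kb or more away.

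Of 7 carriers whose substrate is unsettled or of another kind, 2 had reproducible summits. SLC25A53 had 2 of them, one 344 bp upstream of its start with 16.4 and 21.4 (18.9 ± 3.53, SD, n = 2) and one 9.14 kb upstream with 14.7 and 15.4 (15.03 ± 0.502, SD, n = 2). Both were inside FAM199X, whose upstream boundary in the gene table is 287 bp from the first, and the second was 307 bp from a listed start of FAM199X. SLC25A48, linked to choline import, had 12.8 and 12.03 (12.4 ± 0.571, SD, n = 2) at a summit 2.75 kb upstream of the gene and inside the chemokine gene CXCL14. SLC25A45 had a peak in each replicate at different places. The replicate 1 peak had 5.71 at 0.259 kb from a start, with its summit inside both SLC25A45 and FRMD8. The replicate 2 peak had 6.96 at 8400 bp outside the gene and 1234 bp from FRMD8. SLC25A35 had 2 low peaks in replicate 2 alone (3.39 and 3.76), and SLC25A34, SLC25A43 and SLC25A47 had none. The nearest reproducible summit to SLC25A43 was 14.9 kb away, inside the adenine nucleotide translocase gene SLC25A5.

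**Figure D2:**
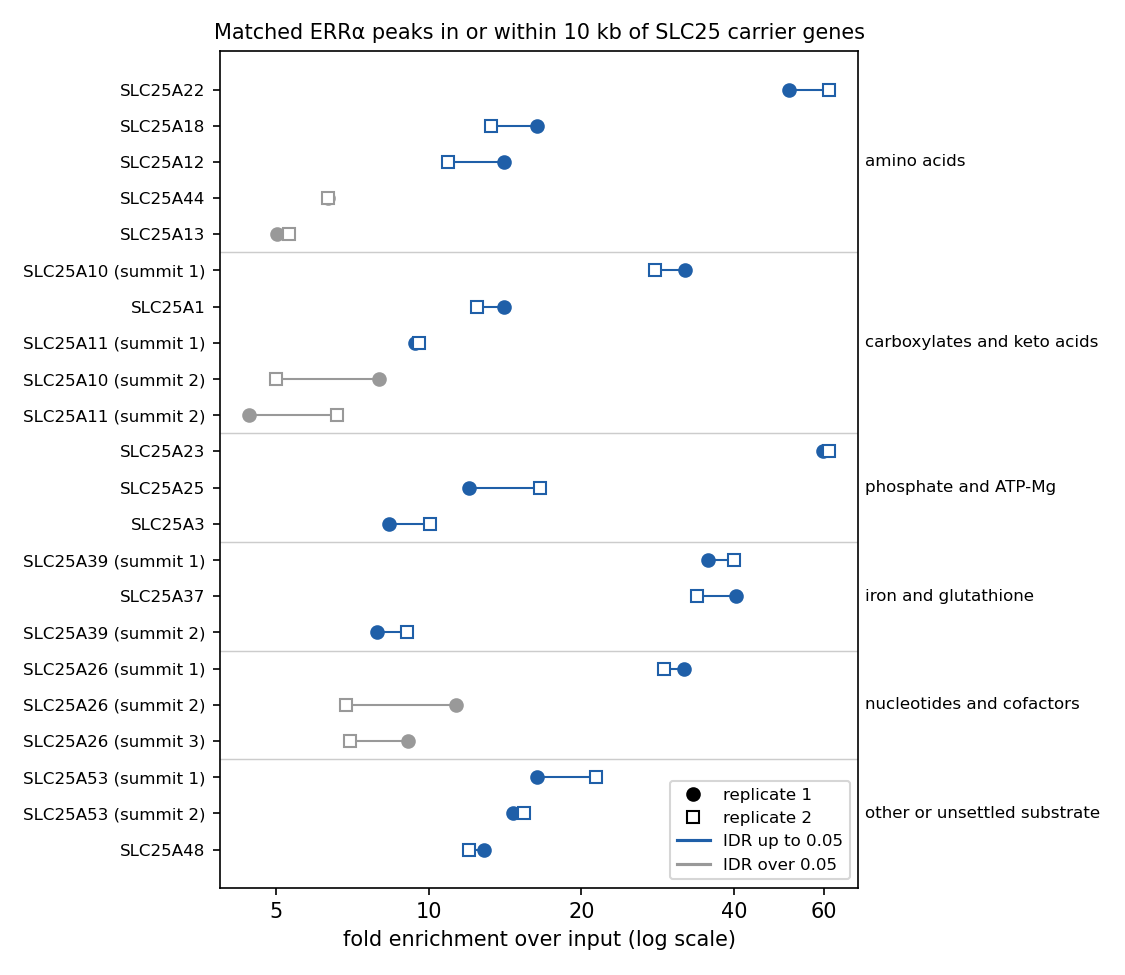
Fold enrichment over input (horizontal axis, log scale) of 22 matched peaks in or within 10 kb of a carrier, by substrate group, with filled circles for replicate 1 and open squares for replicate 2. Blue peaks passed an IDR of 0.05 and grey ones did not; SLC25A22 and SLC25A23 stand highest, between 51.4 and 61.6.

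The 14 carriers with a reproducible summit fall into levels when their strongest summits are ordered. SLC25A23 and SLC25A22 came first, at 51.4 to 61.6 in any replicate, then SLC25A39 and SLC25A37 at 33.8 to 40.3, then SLC25A26 and SLC25A10 at 28.0 to 31.9. No replicate value of one of these levels reached into the next. The other 8 genes lay between 8.34 and 21.4, and the replicate values of neighbours in their order overlapped or met, except those of SLC25A48 (12.03 and 12.8) and SLC25A11 (9.41 and 9.57). The median of the 14 mean folds was 16.8, against 13.96 for the strongest summit of all 3669 protein-coding genes with one and 12.9 for all 5070 reproducible peaks. The 7 weaker matched peaks had mean folds of 5.17 to 9.10. Of the 16 reproducible summits, 7 were higher in replicate 1 and 9 in replicate 2, and the summits of both replicates were at most 171 bp apart.

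**Figure D3:**
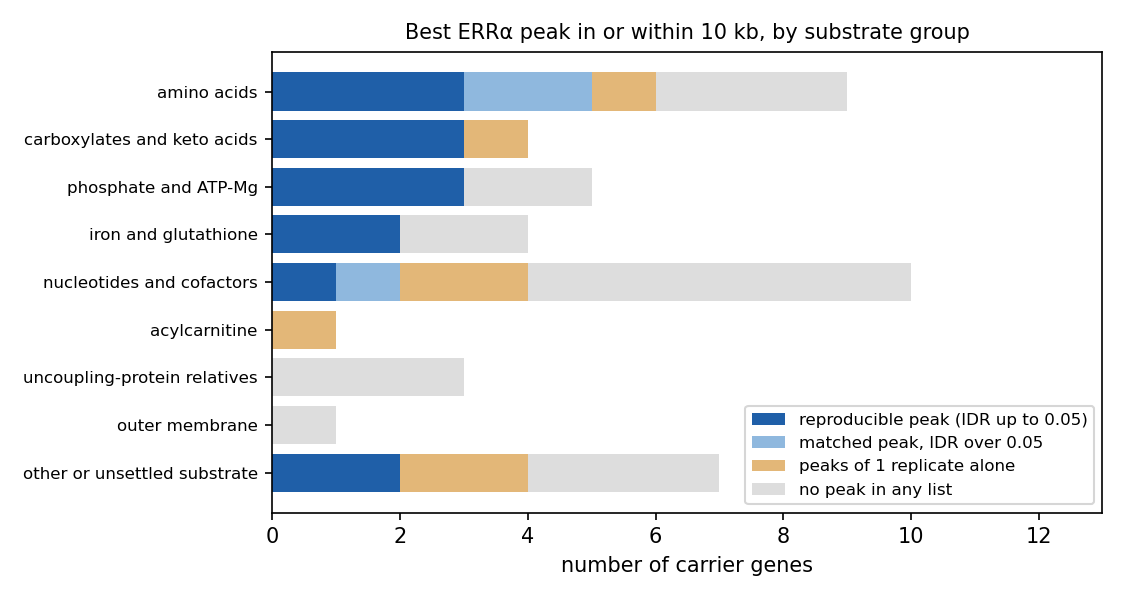
Number of carrier genes (horizontal axis) in each substrate group by the best ERRα peak in the gene or within 10 kb. Peaks of 1 replicate alone include SLC25A45, which had a peak at a different place in each replicate. The group of nucleotides and cofactors had 1 of 10 genes with a reproducible peak and 6 with no peak in any list. Of all protein-coding genes, 18.3% had a reproducible peak by this rule.

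Some closely related carriers differed in these lists. Of 15 pairs, 6 had a reproducible summit within 10 kb for 1 member alone, 3 for both and 6 for neither. Taken singly, 31.8% of carriers had one, against 18.3% of all protein-coding genes. SLC25A23, SLC25A24 and SLC25A25 each stand in more than 1 pair. For SLC25A10 with SLC25A11 and SLC25A18 with SLC25A22, both summits were nearer a neighbour than the carrier, as was that of SLC25A48. Whether pairs differ more than unrelated carriers was not tested. The pairs with 1 were SLC25A12 and SLC25A13, SLC25A23 and SLC25A24, SLC25A25 and SLC25A24, SLC25A37 and SLC25A28, SLC25A39 and SLC25A40, and SLC25A48 and SLC25A45. A member without a reproducible summit had at most a peak that failed IDR or, for SLC25A45, a peak at a different place in each list.

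Other mitochondrial transport genes were set beside the carriers as a description. Of all protein-coding genes, 18.3% had a reproducible summit within 10 kb, 14.3% as the nearest gene and 4.49% within 1 kb of an end. Of the 4 adenine nucleotide translocase genes, 3 had a reproducible summit within 10 kb, and each of these was within 1 kb of a gene end. SLC25A6 had 284.6 and 300.3, above every carrier described here, SLC25A5 had 53.3 and 43.9, and SLC25A4 had 9.90 and 7.65. Of 30 other mitochondrial transporters, 12 (40%) had one within 10 kb, 11 (36.7%) as the nearest gene and 7 (23.3%) within 1 kb of an end. The strongest were SFXN4, a sideroflexin linked to iron-sulfur clusters (71.3 and 70.2), VDAC2, an outer membrane channel (61.6 and 62.4 at 4115 bp outside the gene), and MTCH2, an outer membrane relative of the SLC25 proteins (38.8 and 38.7). MPC2, a subunit of the pyruvate carrier, had 24.0 and 23.4. In this list the count fell little when summits went to their nearest gene, from 12 to 11, while for the carriers it fell from 14 to 7. The 338 other SLC genes had 71 (21.0%) within 10 kb and 17 (5.03%) within 1 kb of an end, close to all protein-coding genes.

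Among 22 enzymes that make or use the carriers' substrates, 7 (31.8%) had a reproducible summit within 10 kb, against 18.3% of all protein-coding genes. Within 1 kb of an end there was one for 6 (27.3%), against 4.49%. As the nearest gene, 6 (27.3%) had one, against 14.3%. The malate dehydrogenase genes of the malate-aspartate shuttle both had one at a gene end, the cytosolic MDH1 with 18.2 and 13.8 (16 ± 3.07, SD, n = 2) and the mitochondrial MDH2 with 8.75 and 8.86 (8.81 ± 0.0778, SD, n = 2). GOT1 and GOT2 of the same shuttle also had a summit within 1 kb of an end. GOT1 had 36.0 and 37.9 (36.9 ± 1.31, SD, n = 2) and GOT2 had 19.9 and 14.2 (17.05 ± 4.01, SD, n = 2). The strongest of the 22 was OGDH, with 83.9 and 65.8 at a summit inside the gene. Of the carriers of the malate-aspartate shuttle, SLC25A12 had a reproducible peak at its start and SLC25A13 had no peak there. SLC25A11 had a weak peak at its start that failed IDR and could not be told apart from RNF167.

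**Figure D4:**
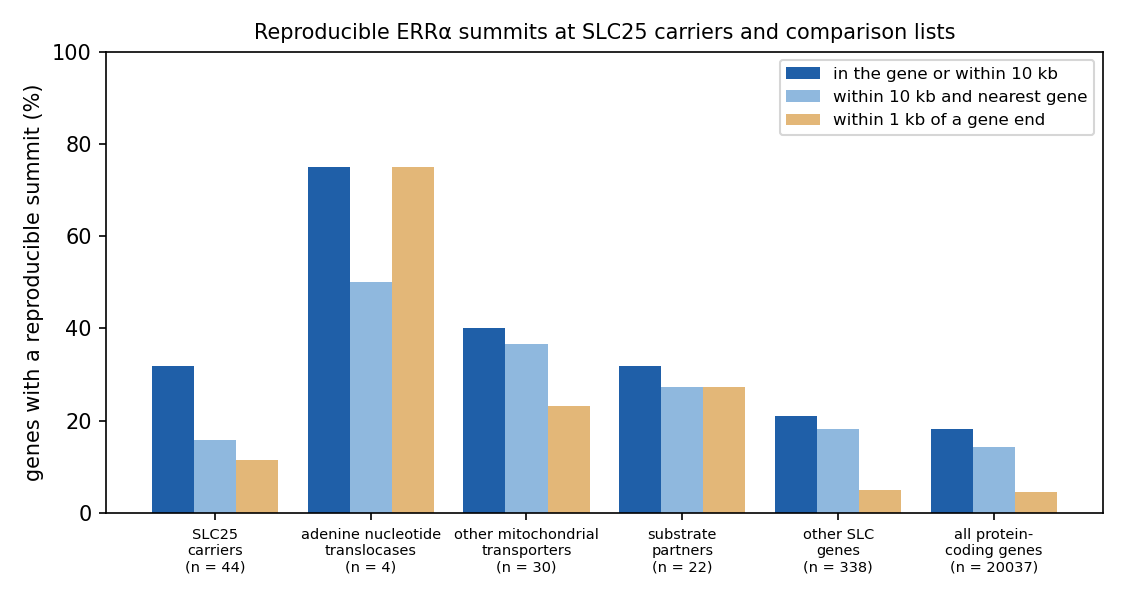
Share of genes (vertical axis, percent) with a reproducible ERRα summit in the gene or within 10 kb, within 10 kb with the gene being the nearest protein-coding one, and within 1 kb of a gene end, for the carriers and 5 comparison lists. The carriers reach 31.8% by the first rule and 15.9% by the second, where all protein-coding genes reach 18.3% and 14.3%.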

How the data were processed

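ERRα ChIP-seq peaks of MDA-MB-231 cells were analysed as deposited. Per the labels, sequencing was paired-end with 81 bp reads, and the read numbers, read here as 29000000 for ERRα and 10000000 for input, do not give a depth per peak. The submitters' processing notes name hg38 and, as tools, MACS2 2.2.6, Bowtie2 2.3.5, Trim Galore 0.6.5, deepTools, SAMtools and Picard. Neither tool settings nor an IDR version were found in the sources used. Each deposited replicate list is named as called against both inputs and gives per peak a fold, which is the authors' ratio of ChIP to background, and a −log10 q. The list of matched peaks has the layout of IDR output and holds the authors' IDR score and the summed fold of both replicates, and it was not filtered when deposited. A score of at least 540 is an IDR up to 0.05.

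Here, the fold of a matched peak in each replicate was that of the highest peak of that replicate's list under it. Peaks off chromosomes 1 to 22, X and Y (371, 358 and 272 in replicate 1, replicate 2 and the matched list) were left out. Genes and promoters came from RefSeq GRCh38.p14. The rule named every carrier, with values for those with a peak, and 1 carrier with a weaker peak is counted but not reported by name here. A summit was given to every gene whose window held it, and the nearest gene was that with the smallest distance to its body, then to its ends. Analyses used Python 3.11.15 and pandas 2.3.3, and summit assignment was tested on simulated data. The members, substrate groups and comparison lists were chosen with earlier results of these data known.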

Additional observations from a re-analysis of the deposited data

How the results depend on the processing

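Counts of carriers and the share of all protein-coding genes were recomputed with other thresholds, lists and windows. The 14 carriers with a reproducible summit within 10 kb became 9 with a 1 kb window (against 13.4% of all genes), 6 inside the gene only, 5 within 1 kb of either end and 7 when each summit went to its nearest gene. They became 11 at 5 kb (against 15.8% of all genes) and 18 at 20 kb (against 23%), and the remaining settings gave 13 to 21. The share of all genes, 18.3%, became 11.5% inside the gene only, which the 6 of 44 carriers are close to, 4.49% within 1 kb of either end, 30.8% with all matched peaks, 38.9% with the replicate 1 list, 35.9% with the replicate 2 list, and 27.9% with a −log10 q of at least 5 in both. The 5 carriers with a summit within 1 kb of a gene end became 3 at 500 bp, 8 at 5 kb, 9 with all matched peaks, 12 with the replicate 1 list and 11 with the replicate 2 list. The share of all genes, 4.49%, became 2.82%, 9.28%, 8.85%, 12.2% and 11.0% in that order. The summed value of the matched list divided by 2 gave 11.5 in place of 9.49 for SLC25A11 and 44.8 in place of 37.8 for SLC25A39, because it adds neighbouring peaks of a replicate, and moved no other strongest fold of the 14 carriers. No paired analysis was possible because no test was run and the inputs have no peak values of their own. A gene with no peak in these lists is not shown to lack binding, since the read depth at each place is unknown.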
